A study of Mus musculus with 65 samples.

Results

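Short clean deletions are the repair products in which 2 to 19 bp were lost at a Cas9 cut, the ends were joined with no inserted base, and the joined ends shared at most 1 base of microhomology. They were chosen read by read from the deposited junction tables: an indel length of 2 to 19 bp, a microhomology length of 0 or 1 bp, and no read bases between both matched parts. These values chose the reads, so length and microhomology describe the class and test nothing. The rule found 45801 reads among 325230 indel reads and 828461 reads in all, and 45771 of them lay in the libraries that received an sgRNA. Of those 45771 reads, 36694 had no shared base at the junction and 9077 shared 1 base. Counted per site, they were 703 distinct deletions.

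The reads come from hepatocytes isolated from the livers of mice of the genotype Rosa-LSL-Cas9-EGFP, which carry a Cas9 and EGFP cassette behind a stop that Cre removes. Every group shares this genotype, and the labels give neither the source of Cre nor the age of the animals. An adeno-associated virus was given by retro-orbital injection, with an empty sgRNA (EV, 21 libraries at 2 weeks post injection, wpi) or with sgRNAs. The sgRNA libraries are labelled KO (1 library at 1 wpi, 17 at 2, 3 at 3 and 3 at 8 wpi), coinjection (4 at 2 and 4 at 3 wpi) or PTG, which the labels do not spell out (4 each at 2, 3 and 6 wpi). Coinjection and PTG cover the Lats1 and Lats2 sites, and KO covers the other 17 of 21 cut sites. A site was sequenced once per arm and time, so no spread between animals was measured, and an arm or a time cannot be told apart from the animals in it. Amplicons of a sample were pooled before library preparation, so sites can share animals. A library held 2290 to 27974 reads (median 12621), and the 95% intervals below cover counting error only, since several reads can stem from 1 molecule when no molecular identifier is used.

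A Cas9 break is mostly sealed by non-homologous end joining, in which Ku binds the ends, nucleases and polymerases may trim or fill them, and the ligase IV complex joins them. This pathway needs little or no homology and typically leaves small insertions and deletions. Polymerase theta-mediated joining instead pairs short repeats on both sides of the break and deletes the bases between them. Hepatocytes of an adult liver divide rarely, and end joining does not require division.

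The targets, with gene positions on GRCm38.p6 (mm10) from RefSeq, include genes of liver metabolism and identity, of mitochondrial DNA and of growth control. Fah, on chr7:84585159-84605942, encodes the last enzyme of tyrosine breakdown, and Hnf4a, on chr2:163506811-163572907, encodes a nuclear receptor that maintains hepatocyte identity. Kif11, on chr19:37376382-37421863, encodes a mitotic spindle kinesin. Polg, on chr7:79446231-79467911, and Polg2, on chr11:106768204-106779537, encode the catalytic and accessory subunits of the mitochondrial DNA polymerase, and Tfam, on chr10:71225468-71238328, encodes a mitochondrial DNA packaging and transcription factor. Lats1, on chr10:7681200-7716461, and Lats2, on chr14:57689662-57746212, encode kinases of the Hippo pathway, which restrains growth. EGFP is the transgene itself. The position of each cut within its gene was not analysed here.

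With an sgRNA, short clean deletions made up between 0.365% and 67.4% of the indel reads of a library, with a median of 13.2% over 44 libraries. At 2 wpi, taking KO for 17 sites and coinjection for the Lats sites, the median over 21 sites was 12.96%. The highest share was 58.9% (56.6 to 61.2) at Lats1-sg2, where 1083 of 1839 indel reads were of this class. Kif11-sg3 followed at 36.6% (34.8 to 38.5), Lats2-sg1 at 31.8% (30.9 to 32.8) and Polg-sg1 at 31.3% (30.4 to 32.1). The intervals of the last 2 overlap, so their order is not resolved even by counting error. For all sites, the spread between animals was not measured. At the other end, the share was 0.365% (0.277 to 0.472) at Tfam-sg2-3, 0.569% (0.392 to 0.799) at Lats2-sg2, 1.72% (1.51 to 1.94) at Polg-sg3 and 1.74% (1.29 to 2.30) at Tfam-sg1. At Tfam-sg2-3, 14880 of 15882 indel reads were deletions of 20 bp or more, and short clean deletions were 5.79% of the other 1002. The title of that sample names sg2-3 and its treatment label sg2.

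Sites within 1 gene were far apart. In Lats1, 58.9% at Lats1-sg2 stood beside 5.96% (5.33 to 6.63) at Lats1-sg1. In Hnf4a, the share was 28.2% (27.3 to 29.1) at Hnf4a-sg1, 12.96% (12.3 to 13.6) at Hnf4a-sg2 and 1.99% (1.75 to 2.25) at Hnf4a-sg3. In Polg2, Polg2-sg2 had 25.9% (24.6 to 27.3), against 3.50% (3.19 to 3.83) at Polg2-sg1 and 4.12% (3.78 to 4.47) at Polg2-sg3. In Fah the shares were 13.4% (12.9 to 13.9) and 9.80% (9.15 to 10.5), whose intervals, for counting error only, also do not overlap. In all, 6 of 21 sites were above 25% and 7 were below 5%.

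**Figure D1:**
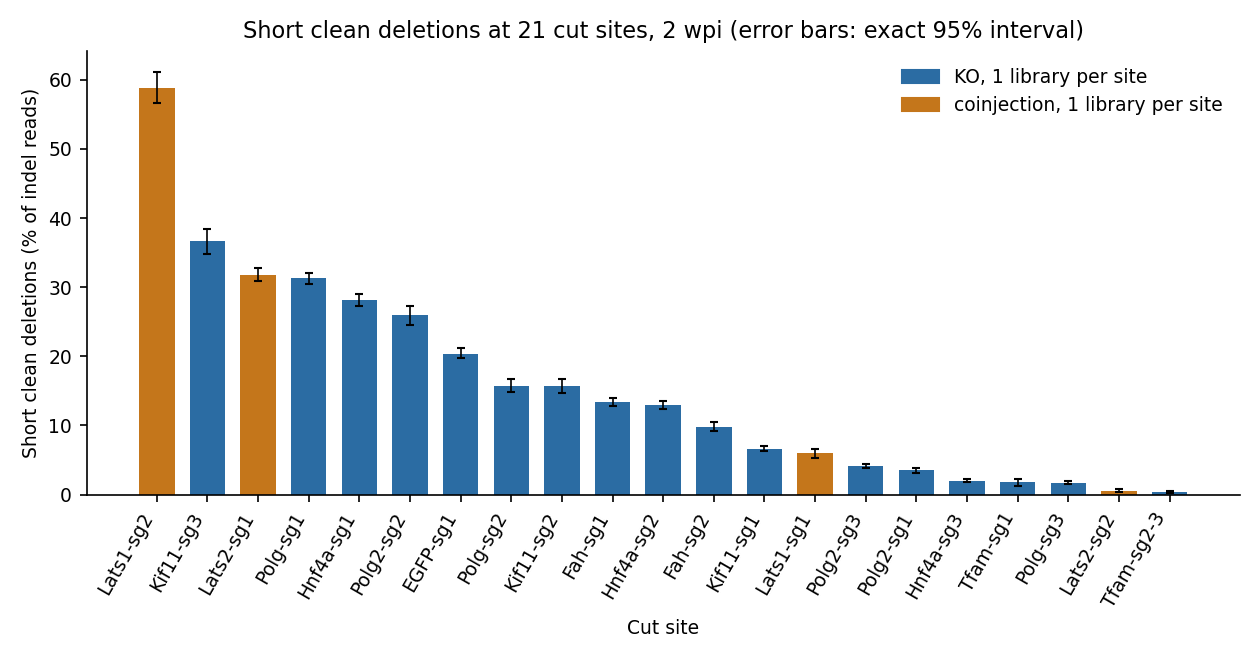
Share of indel reads that were short clean deletions (vertical axis, percent) at each of the 21 cut sites at 2 wpi, 1 library per bar, with exact 95% binomial intervals; blue bars are KO and orange bars coinjection. The shares fall from 58.9% at Lats1-sg2 to 0.365% at Tfam-sg2-3, and the sites of Lats1, Lats2, Hnf4a and Polg2 are spread along the axis.

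All indel reads were sorted into 8 classes by length, insertion and microhomology. Short clean deletions were the largest class at 3 sites, Hnf4a-sg1, Kif11-sg3 and Lats1-sg2, the second at 6 and the third at 5 of 21 sites. Among deletions of 2 to 19 bp alone they held a median of 66.6%, and more than 50% at 14 of 21 sites. The range ran from 5.24% at Lats2-sg2 to 90.4% at Polg-sg1. At the edges of the rule, the sgRNA libraries held 32782 reads with a clean 1 bp deletion against 25704 with 2 bp. There were 200 reads of 19 bp and 128 of 20 bp, and 9077 reads with 1 bp of microhomology against 9335 with 2 bp. A single inserted base was found in 9371 reads that otherwise met the rule.

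The empty-virus libraries give the background of the method. They held 30 short clean deletion reads among 262414 reads, at most 6 in a library and at most 0.218% of reads, the latter at Kif11-sg2, where the library was also the smallest. In 10 of the 21 EV libraries there was none, which allows a share of up to 0.0156% to 0.102% depending on depth. With the sgRNA at 2 wpi the share of all reads was between 0.227% at Lats2-sg2 and 29.0% at Kif11-sg3. It was higher than in EV at 21 of 21 sites by Fisher's exact test on the reads of both libraries, two-sided, with Benjamini-Hochberg adjustment over 8 classes and 21 sites. Over all classes and sites, 98.8% of comparisons were called in this way, so the count is close to that of indels in general. The call with the highest p was that of Tfam-sg1, with 0.446% against 0 of 6997 reads (adjusted p = 5.28e-11, exact).

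Most short clean deletions were at the short end of their window. Over the 19 sites with at least 50 such reads at 2 wpi, the median length had a median of 3 bp and ran from 2 to 5 bp. Deletions of exactly 2 bp made up a median of 49.2% of the class. The share of 2 bp was 88.3% at Polg2-sg2, 84.5% at Lats1-sg2, 76.1% at Polg-sg1 and 75.6% at Kif11-sg1, and it exceeded 50% at 9 of 19 sites. The median was 8.37% for 3 bp, 8.26% for 4 bp, 16.9% for 5 to 9 bp and 8.74% for 10 to 19 bp.

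A few sites had other leading lengths. At Polg2-sg3, 41.6% of the class was 3 bp long, and at Kif11-sg2 it was 35.5%. At Fah-sg2 and Polg2-sg1, 4 bp deletions led with 35.2% and 35.8%. Longer losses of 10 to 19 bp were most frequent at Tfam-sg2-3, with 39.7% of 58 reads, and at Hnf4a-sg3, with 37.4% of 243 reads. At Hnf4a-sg3 the most frequent of these was 11 bp long, with 17.3% of the class, ahead of 18 bp with 9.05% and 12 bp with 7.41%. Lengths divisible by 3, which keep a reading frame if the cut lies in coding sequence, were 20.2% of the class at the median site. They ran from 1.39% at Lats1-sg2 to 57.1% at Polg2-sg3.

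Hnf4a-sg2, Polg-sg3 and Polg2-sg1 held no short clean deletion of 2 bp at all. All of their clean 2 bp deletions, 4675 reads at Hnf4a-sg2, 1366 at Polg-sg3 and 591 at Polg2-sg1, carried 2 bp of microhomology and therefore fell outside the rule. The 2 bp lost at these sites could have come from either side or from both, and the tables cannot tell these apart.

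**Figure D2:**
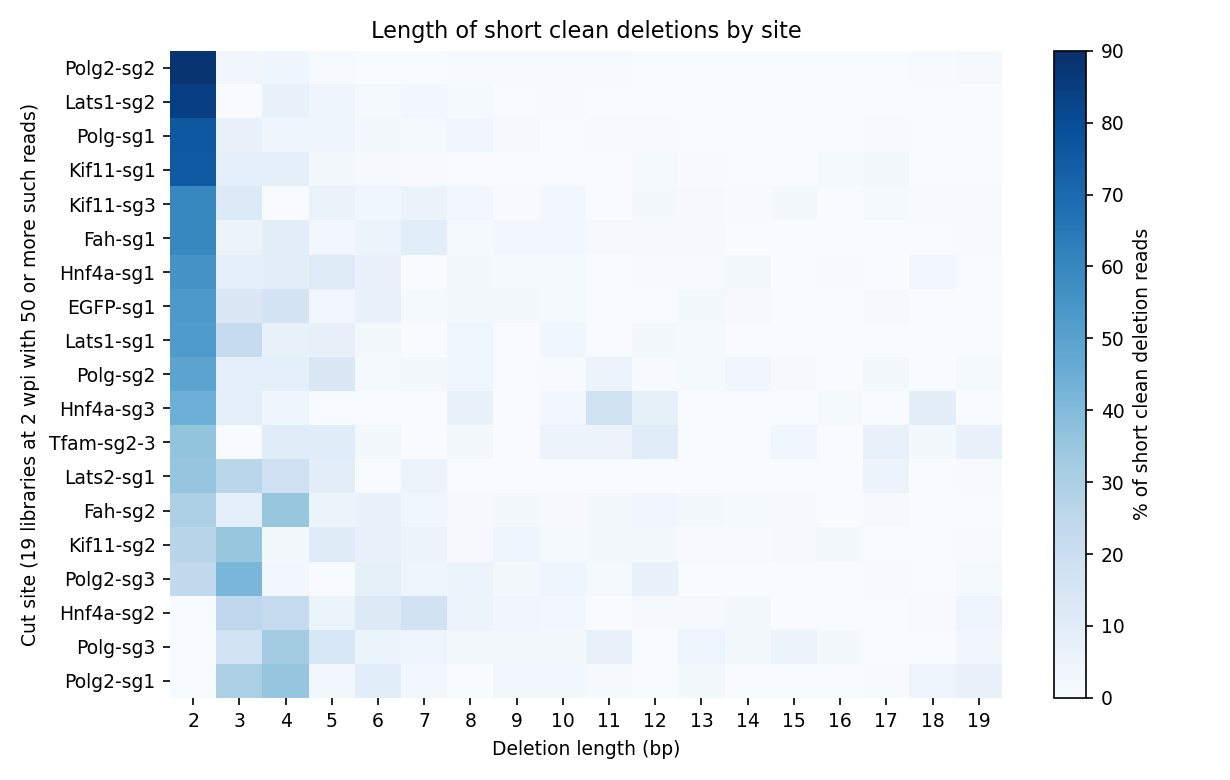
Length of the short clean deletions (horizontal axis, 2 to 19 bp) at 19 sites at 2 wpi, 1 library per row, shaded by percent of the short clean deletion reads of that library and ordered by the share of 2 bp. The 2 bp column is darkest at Polg2-sg2 (88.3%) and empty at Hnf4a-sg2, Polg-sg3 and Polg2-sg1, while Hnf4a-sg3 has an isolated 11 bp cell at 17.3%.

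The side of the loss was not used to choose the reads. All junctions of a site span 1 template position, taken as the cut, and the bases missing to its left and right were counted in the direction of the amplicon template. The strand of each guide was not given in the sources used here, so left and right are not the PAM side or the far side. Where 1 base was shared, that base could belong to either side, and only the remaining bases were assigned.

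At the median site, 90.5% of short clean deletions had all assigned bases on 1 side. A read with 1 shared base can thus count as one-sided although that base may have come from the other side. The one-sided share exceeded 85% at 18 of 19 sites and was highest at Hnf4a-sg1, with 98.98% of 2655 reads. Of those 2655 reads, 61.2% shared no base, and 656 were 2 bp deletions with 1 shared base, which are one-sided by the rule. Polg-sg3 was the exception, with 66.0% of 253 reads (95% interval 59.8 to 71.8). Losses from the left only took 33.3% at the median site, from 14.1% at Polg2-sg2 to 95.1% at Lats1-sg2. Losses from the right only took 50.4% at the median site, from 1.20% at Lats1-sg2 to 81.98% at Polg2-sg2.

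At 9 of the 19 sites over 70% of the class had lost more on 1 particular side. At Lats1-sg2, 95.2% of the class had lost more on the left, at Lats1-sg1 79.9%, at Polg2-sg3 73.7% and at Polg2-sg1 70.9%. At Polg2-sg2, 84.0% had lost more on the right, at Kif11-sg1 79.3%, at Tfam-sg2-3 74.1%, at Fah-sg1 72.5% and at Polg-sg1 72.4%. Hnf4a-sg2 was almost even, with 49.9% on the left and 49.9% on the right. Over the 19 sites, 8 leaned left, counting the almost even Hnf4a-sg2, and 11 leaned right. The mean difference, percent with more loss left minus percent with more loss right, was -6.53 ± 44.8 points (SD, 19 sites), with p = 0.528 in a two-sided sign-flip permutation test over sites. The mean turned to 7.16 without the 2 bp deletions and to 7.99 without the most frequent deletion of each library, and neither passed the test. No common side was thus detected over sites, while the spread between sites was large.

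**Figure D3:**
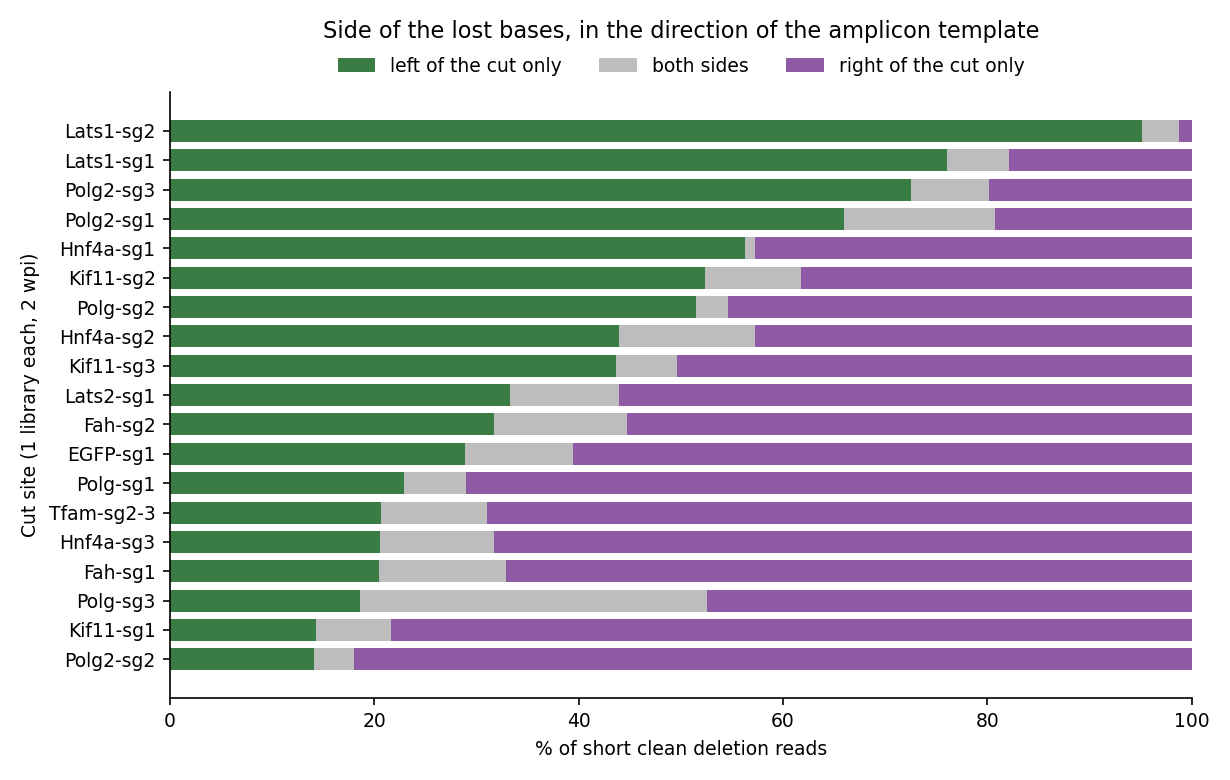
Share of short clean deletion reads (horizontal axis, percent) with bases lost left of the cut only (green), right of the cut only (purple) or on both sides (grey) at 19 sites at 2 wpi, 1 library per bar, in the direction of the amplicon template. A shared base is not assigned to a side. The left-only share runs from 14.1% at Polg2-sg2 to 95.1% at Lats1-sg2, and the grey part is widest at Polg-sg3 (34.0%).

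The 2 bp deletions are the simplest case, since they can take both bases from the left, both from the right, or 1 from each. At the 16 sites with at least 20 such reads there were 12666 of them. They split into 8112 reads assigned to the right, 4450 to the left and 104 with 1 base from each side. The right led at 9 sites and the left at 5. Kif11-sg3 had 292 reads on each side and Tfam-sg2-3 had 9 on each side. At Kif11-sg1, 843 of 900 reads (93.7%; 91.9 to 95.2) were on the right, while at Lats1-sg2 904 of 915 (98.8%) were on the left.

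At 6 of these 16 sites some 2 bp deletions shared a base, and there a loss of 1 base on each side reads the same as the one-sided form. At the other 10 sites the forms are distinct, and 104 of 8162 reads (1.27%) had lost 1 base from each side. None did at Polg-sg2, Lats1-sg1, Lats1-sg2 and Lats2-sg1. The highest share was 14.3% at Tfam-sg2-3, from 3 of 21 reads, followed by 11.1% at Fah-sg2, from 25 of 226 reads, and 9.52% at Kif11-sg2, from 20 of 210 reads.

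The share with losses on both sides was also read by length. Counting only reads with no shared base, at sites with at least 20 reads of a length, the median share with loss on both sides was 0.135% at 3 bp. It was 10.7% at 4 bp, 11.3% at 5 to 9 bp and 14.6% at 10 to 19 bp. The ranges over sites were wide, from 0% to 48.4% at 3 bp, to 34.8% at 4 bp and to 59.0% at 5 to 9 bp. At 10 to 19 bp the range was 0% to 93.5%, the latter at EGFP-sg1 with 31 reads of 4 distinct deletions. Lats2-sg1 was next at 93.1% of 159 reads of 2 distinct deletions. At 2 bp the median was 1.08% over the 10 sites where the form with 1 base from each side can be seen, a choice of sites not made at the other lengths. A form whose joined ends share a base at a site is left out there by this choice of reads, the sites in each length group are not the same, and no test was made of this order.

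Averaged over 19 sites with equal weight, and again for reads with no shared base, the loss of 2 bases on the right alone took 28.1% and that of 2 bases on the left alone 17.1%. Losses of 3 bases took 7.98% on the left and 5.60% on the right, and 4 bases took 4.23% on the left and 3.35% on the right. Of the combined forms, 1 base on each side took 1.02%, and 2 on the left with 1 on the right 0.937%. Deletions with all bases on 1 side added up to 91.7%. These means are partly set by the choice of reads, since at 9 of the 19 sites the form with 1 base on each side could not appear among reads with no shared base or had no 2 bp deletion to come from. At the other 10 sites it took 1.93%, beside 33.7% for 2 bases on the right and 26.6% for 2 on the left.

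**Figure D4:**
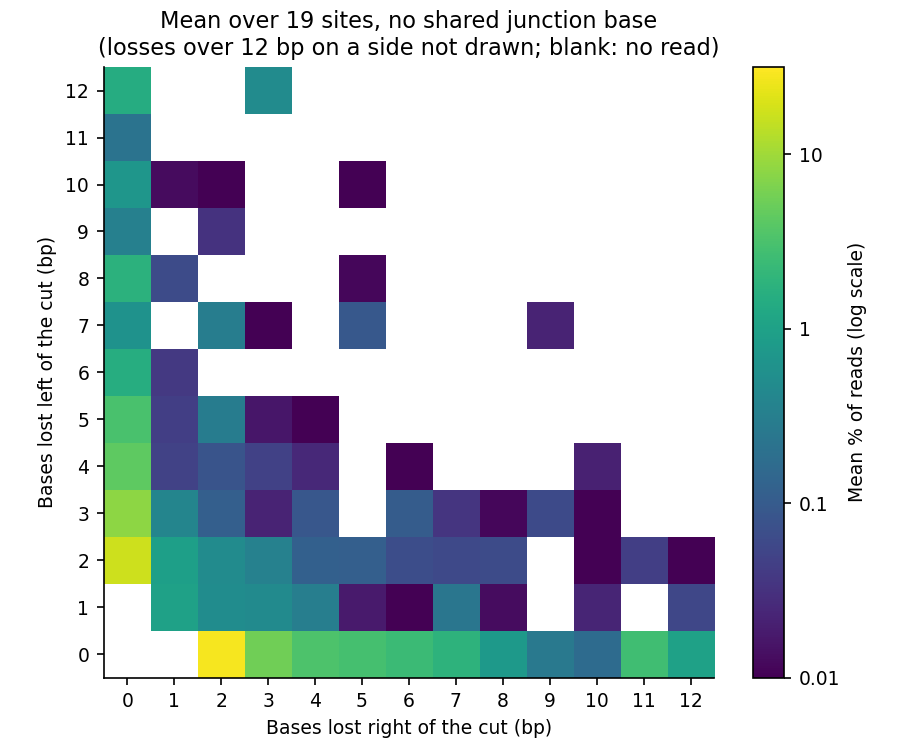
Mean share of short clean deletions with no shared base (colour, percent on a log scale, mean over 19 sites at 2 wpi) by the number of bases lost left (vertical axis) and right (horizontal axis) of the cut, up to 12 bp on each side. The bright cells lie along both axes, led by 2 bases on the right (28.1%) and 2 on the left (17.1%), and the cells off the axes are darker, with 1 base on each side at 1.02%; forms that share a base at a site are not drawn for that site.

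Deletions of 2 to 19 bp that also held inserted bases were set beside the clean ones in the same libraries. Their length is net of the inserted bases, so they lost more template bases than a clean deletion of equal length. No matched part crosses the cut, so a template base kept beside the cut can read as inserted. Such a read counts as one-sided. Both classes are thus not measured alike, and the tests below cannot separate a difference in one-sidedness from this. Over the 18 sites with at least 50 reads of both classes, 90.3% ± 7.24 of the clean and 91.7% ± 7.19 (SD over sites) of the inserted-base deletions were one-sided in their assigned bases. The mean paired difference was -1.34 ± 10.7 points (SD, 18 sites), with p = 0.613 in a two-sided sign-flip permutation test. Among deletions of 3 to 19 bp the difference was -10.2 points (p = 0.00367, permutation), and with each distinct deletion counted once it was -13.4 points (p = 0.00143, permutation), so fewer clean than inserted-base deletions were one-sided under both. The more frequent side was the same in both classes at 14 of 18 sites and opposite at EGFP-sg1, Hnf4a-sg3, Fah-sg2 and Kif11-sg2. The 14 include Hnf4a-sg2, where the clean deletions were almost even. At Hnf4a-sg3, 31.7% of 243 clean deletion reads but 94.9% of 234 inserted-base reads had lost more on the left. At Fah-sg2 these shares were 35.4% of 773 and 83.0% of 264 reads.

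Few deletions carried the class at most sites. A site with at least 50 such reads had 14 to 44 distinct short clean deletions at 2 wpi (median 24), and the most frequent one took a median of 30.2% of the class and more than 50% at 4 of 19 sites. The 3 most frequent at each of the 21 sites, each with at least 5% of the class, make 59 deletions. Of these, 57 were one-sided in their assigned bases, 27 on the left and 30 on the right, 28 were 2 bp long and 41 shared no base. The leading deletion was 2 bp long at 15 sites. In EV, the 59 deletions had 17 reads together, at most 2 each.

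At Polg2-sg2, the loss of 2 bases on the right was read 805 times, which was 77.2% of the class and 20.01% of all indel reads. At Polg-sg1 the same form was read 2326 times, which was 60.1% of the class and 18.8% of indel reads, and its mirror, 2 bases on the left, 586 times. At Hnf4a-sg1 the loss of 2 bases on the left was read 802 times, which was 30.2% of the class. A 2 bp deletion with 1 shared base and 1 base assigned to the right followed there with 656 reads. At Lats2-sg2, at the other end, the leading deletion had 11 reads.

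Longer forms led at 6 sites. At Polg2-sg3 the loss of 3 bases on the left had 177 reads (32.8% of the class), and at Polg2-sg1 the losses of 4 and of 3 bases on the left had 111 and 109 reads (24.8% and 24.4%). At Hnf4a-sg2 a 3 bp deletion with 1 shared base and 2 bases assigned to the right had 273 reads (19.1%). At Kif11-sg2 a 3 bp deletion with 1 shared base and 2 bases assigned to the left had 208 reads (25.97%). At Polg-sg3 and Lats2-sg2 a 4 bp deletion with 1 shared base and 3 bases assigned to the right had 54 and 11 reads.

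More than 1 library with at least 50 such reads was available at 10 sites, which allows the profile of a site to be compared with itself. The profile was the share of each length and side form, and the distance was the total variation distance, 0 for equal profiles and 1 for profiles with nothing in common. Pairs of libraries of 1 site had a median distance of 0.234 (0.0603 to 0.691, 41 pairs), and pairs from different sites 0.695 (0.194 to 0.966, 424 pairs). Pairs share libraries and sites, so these values are a description. The 5 libraries of Lats1-sg2 were closest to each other, with a median of 0.0892, and the 3 of Lats2-sg2 farthest, with 0.678.

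The question over time was whether the share of short clean deletions among indel reads moved after the first weeks. Of 20 comparisons of a site with itself at an earlier time, 12 were called, 8 higher and 4 lower later (two-sided Fisher's exact test with Benjamini-Hochberg adjustment over 8 classes and 20 comparisons; 13 had an unadjusted p under 0.05). Over all classes 53.8% of comparisons were called, 27.5% higher and 26.2% lower, so the rate is near that of indel classes in general. No such share is given for subsets of these comparisons, so the counts for an arm or a gene below are a description. The differences ran from -14.5 to 19.2 points. Among deletions of 3 to 19 bp alone, 9 comparisons were called both ways, and 4 of these 9 had the opposite sign. Of the 20 comparisons, 5 involve a library with fewer than 10 distinct short clean deletions (coinjection Lats2-sg2 and PTG Lats2-sg1 and Lats2-sg2 at 2 wpi, and PTG Lats2-sg2 at 3 wpi), and without them 7 of 15 were called, 3 of them higher.

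In the KO arm 2 of 8 comparisons over time were called, 1 at EGFP-sg1 and 1 at Kif11-sg1. EGFP-sg1 had 19.7% (18.6 to 20.7) at 1 wpi, 20.4% (19.7 to 21.1) at 2 wpi and 18.6% (17.97 to 19.3) at 3 wpi, while the indel reads went from 61.5% to 94.6% and 93.7% of all reads. The step from 2 to 3 wpi was called, with a difference of -1.75 points (adjusted p = 0.00145, Fisher's exact test). Within the class, the loss of 2 bases on the right was 29.7%, 31.8% and 32.3% at these times. Fah-sg1 had 13.4% at 2 wpi and 12.8% at 3 wpi, and Fah-sg2 had 9.80% and 9.37%. Neither was called, with intervals of the difference of -1.29 to 0.122 points and -1.32 to 0.456 points.

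Between 2 and 8 wpi, Kif11-sg2 had 15.7% and 15.8% and Kif11-sg3 36.6% and 37.1%. Neither was called, with intervals of -1.17 to 1.41 points and -2.01 to 2.98 points. As a share of all reads both rose, by 4.99 and 3.02 points. Kif11-sg1 rose from 6.60% (6.24 to 6.97) to 9.44% (8.97 to 9.93), by 2.84 points (adjusted p = 3.16e-20, Fisher's exact test). A single deletion, 2 bases on the right, made up 843 of 1191 reads of the class at 2 wpi and 1169 of 1377 at 8 wpi, and went from 4.67% to 8.01% of indel reads. Without it the class was lower at 8 wpi, with a difference of -0.471 points (adjusted p = 0.00562, Fisher's exact test).

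At the Lats1 sites, 4 of 6 comparisons over time were called, 1 higher and 3 lower later. At Lats1-sg2 the loss of 2 bases on the left made up 83.5% and 82.8% of the class at 2 and 3 wpi in coinjection, and 89.1%, 80.3% and 80.2% at 2, 3 and 6 wpi in PTG. The class held 58.9% and 61.7% of indel reads in coinjection, which was not called (interval of the difference -0.25 to 5.81 points). In PTG it held 67.4% (63.7 to 70.9), 60.3% (55.6 to 64.9) and 52.9% (50.5 to 55.2). Both later libraries were lower than the first, by -7.05 points (adjusted p = 0.0372, Fisher's exact test) and by -14.5 points (adjusted p = 5.39e-10, exact). As a share of all reads these turn to rises of 2.84 and 7.38 points, since indel reads were 9.65%, 15.5% and 26.2% of all reads. Without the leading deletion, neither was called.

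At Lats1-sg1 the class held 5.96% and 7.36% of indel reads in coinjection and 6.74%, 5.50% and 5.58% in PTG. The rise of 1.41 points in coinjection and the fall of 1.24 points in PTG at 3 wpi were called with adjusted p = 0.0373 and 0.0389 (Fisher's exact test), both close to the threshold of 0.05. As a share of all reads neither was called, and without the leading deletion the fall in PTG was not called (-0.413 points). The difference between 6 and 2 wpi in PTG was not called among indel reads. As a share of all reads it was called, at -1.28 points (adjusted p = 4.01e-06, Fisher's exact test). Without the leading deletion it was called at -0.966 points (adjusted p = 0.0485, exact).

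At the Lats2 sites, all 6 comparisons over time were called, each higher later. How often the other classes were called in these 6 is not given, so the count is not shown to be particular to this class. Deletions of 3 to 19 bp alone were not higher later in every one. At Lats2-sg1 the share was 31.8% (30.9 to 32.8) and 39.1% (38.1 to 40.1) in coinjection at 2 and 3 wpi, and 21.3% (18.998 to 23.7), 40.5% (38.7 to 42.4) and 26.1% (25.03 to 27.2) in PTG at 2, 3 and 6 wpi. The rises of 7.28 points in coinjection (adjusted p = 8.72e-24) and of 19.2 and 4.84 points in PTG (adjusted p = 1.06e-31 and 0.00110) were called by Fisher's exact test. As a share of all reads the coinjection rise was 0.479 points and was not called (adjusted p = 0.149, exact). The PTG library at 2 wpi held 256 such reads of 8 distinct deletions, and 54.3% of them were the loss of 2 bases on the right. The loss of 3 bases on the right, 555 reads in coinjection at 2 wpi, was read 0 times there, which allows up to 3 of 1203 indel reads. The share with more loss on the left at this site went from 16.8% in PTG at 2 wpi to 42.6% at 6 wpi. In coinjection, 2 bp deletions were 35.9% of the class at 2 wpi and 58.0% at 3 wpi. The share of indel reads held by deletions of 3 to 19 bp of the class was lower there at 3 wpi. In PTG that share was higher at both later times.

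At Lats2-sg2 the class was small, with 33 reads (0.569% of indel reads) and 340 reads (5.69%) in coinjection, and 20 reads (1.65%), 119 reads (5.04%) and 205 reads (2.90%) in PTG. All 3 differences were called, the rise of 5.12 points in coinjection with adjusted p = 3.06e-63 (Fisher's exact test). Without the leading deletion, the difference between 6 and 2 wpi in PTG was 0.753 points and was not called (adjusted p = 0.191, exact). The 2 libraries at 2 wpi held 4 and 3 distinct deletions. In PTG, none of the class was 2 bp long at 2 wpi and 81.5% was at 3 wpi. The share of indel reads held by deletions of 3 to 19 bp of the class was lower there at 3 wpi. That share was higher in PTG at 6 wpi and in coinjection at 3 wpi. The 4 bp deletion that led in coinjection at 2 wpi with 11 reads was read 0 times in PTG at 2 and 3 wpi and 36 times at 6 wpi.

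**Figure D5:**
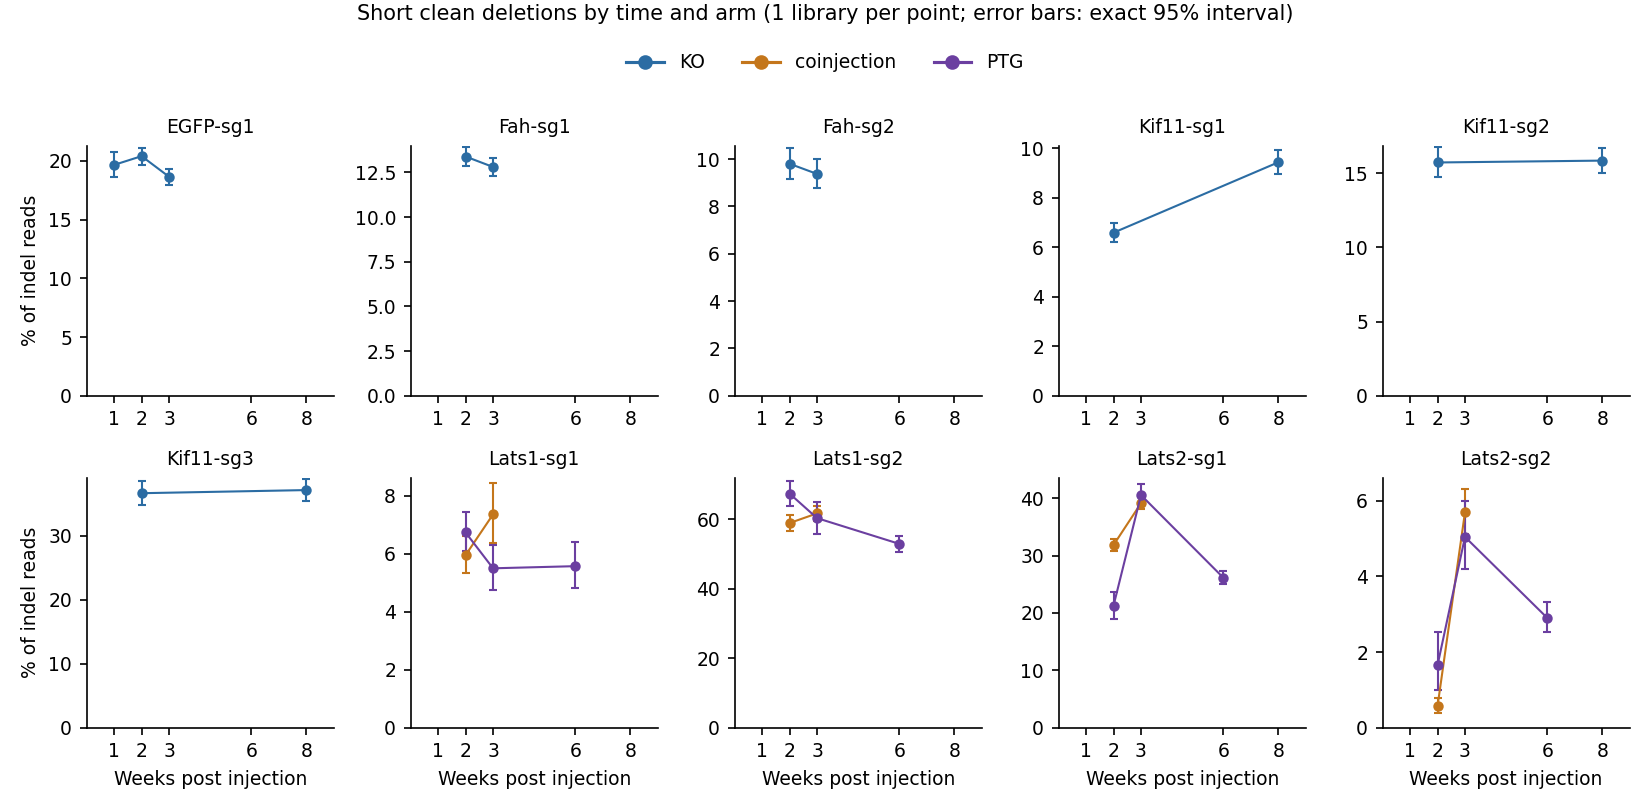
Share of indel reads that were short clean deletions (vertical axes, percent, each panel on its own scale from 0) by weeks post injection at the 10 sites with several sgRNA libraries, 1 library per point with exact 95% intervals, coloured by arm. The Fah, Kif11-sg2 and Kif11-sg3 lines are nearly flat, Kif11-sg1 goes from 6.60% to 9.44%, and Lats2-sg1 in PTG goes from 21.3% to 40.5% and 26.1%.

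PTG and coinjection were compared at 4 Lats sites at 2 and at 3 wpi, and 4 of 8 comparisons were called, 2 higher and 2 lower in PTG (two-sided Fisher's exact test, with the adjustment over 8 classes and 8 comparisons). Over all classes 60.9% were called, 21.9% higher and 39.1% lower. At 2 wpi PTG was higher by 8.48 points at Lats1-sg2 (adjusted p = 0.000338) and by 1.08 points at Lats2-sg2 (adjusted p = 0.000928), and lower by -10.6 points at Lats2-sg1 (adjusted p = 2.06e-13, Fisher's exact test). At 3 wpi Lats1-sg1 was called, with a difference of -1.86 points (adjusted p = 0.00709, exact). The other 3 sites at 3 wpi were not called, with intervals of -6.39 to 3.53 points at Lats1-sg2, -0.651 to 3.51 at Lats2-sg1 and -1.67 to 0.459 at Lats2-sg2. Of the 5 comparisons left without the libraries of fewer than 10 distinct deletions, 2 were called. Without the leading deletion of the site, Lats1-sg2 at 2 wpi turned to -0.723 points and was not called (adjusted p = 0.902, Fisher's exact test). As a share of all reads both higher calls turned, to -19.9 points at Lats1-sg2 and -0.129 points at Lats2-sg2, and Lats1-sg1 at 3 wpi turned to 0.504 points and was not called. On that scale 7 of 8 were called, 1 higher and 6 lower in PTG, where indel reads were 5.79% to 16.9% of reads at 3 of these 4 sites at both times and 55.2% to 63.7% at Lats1-sg1. With 1 bp indels left out of the indel reads, 6 of 8 were called, 5 of them higher in PTG. The share called over all classes is not given for all reads or without 1 bp indels. These counts are thus not shown to be particular to short clean deletions.

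The side of the loss was compared between libraries of a site. In 24 comparisons of 2 libraries of 1 site, by time or by arm, the share with more loss on the left differed by a median of 5.30 points and at most 25.8, and the one-sided share by a median of 2.16 and at most 11.3 points. The share with more loss on the left stayed between 91.6% and 95.5% in 5 libraries of Lats1-sg2 and between 69.7% and 79.9% in 5 of Lats1-sg1. At Kif11-sg1 it was 15.4% and 9.73%, at Fah-sg1 26.4% and 28.5%, and at EGFP-sg1 32.8%, 30.8% and 41.7%. Lats2-sg2 had the widest range of the 10 sites, from 63.8% in coinjection and 63.0% in PTG at 3 wpi to 25.9% in PTG at 6 wpi, times that are not compared among the 24.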

How the data were processed

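Per the labels' protocols, DNA of hepatocytes was extracted, each cut site was amplified by PCR and the amplicons were sequenced. Bowtie2, bcl2fastq, deepTools, R 4.2.1 and mm10 appear in the submitters' processing notes without their roles, and the sources used here do not say how junctions were placed. The 65 deposited tables used hold 1 line per read with template and read positions, indel length and microhomology length in bp, per the file headers, and nothing normalised. The indel length was in all tables the template gap minus the read gap and the microhomology the overlap of both matched parts. The cut was the highest last matched base of a table, and no matched part crossed it, so a repeat reaching beyond the cut is not counted as microhomology. The second table of each Tfam-sg2-3 sample (2 in all), on a shorter template, was left out.

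Shares have exact (Clopper-Pearson) and differences Newcombe 95% intervals. A count of 0 allows up to 3 reads. Fisher's exact tests compare the reads of 2 libraries, at adjusted p under 0.05. Sign-flip tests over sites used 100000 permutations, or all of them for few targets, on libraries with at least 50 short clean deletions. Single deletions are named from the 3 most frequent of a site with at least 5% of its class at 2 wpi; the sites with opposite sides, the lengths called out and the sites with a loss on both sides were chosen after their values were seen. The members, lists and rules were chosen with earlier results of these data known. Gene positions matched 8 of 9 targets. The class rule and both tests were tested on simulated data. Alternatives counted reads with no shared base, 3 to 19 bp, frequent deletions, each deletion once, all reads or no 1 bp indels, left out leading deletions, sites or targets, or took PTG; thresholds on reads and distinct deletions were added after seeing the data. Computations ran in Python 3.11.15 with scipy 1.17.1, pandas 2.3.3, numpy 2.4.6 and matplotlib 3.10.9.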

Additional observations from a re-analysis of the deposited data

Results flagged for a closer look

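The change from 2 to 3 wpi in the share of indel reads differed between PTG and coinjection at all 4 Lats sites, by the difference of both changes with a 95% counting interval. This difference was taken for short clean deletions only, so it is not shown to be particular to them. Over all classes, 53.8% of comparisons over time and 60.9% of those between PTG and coinjection were called. PTG minus coinjection was -2.64 points (-4.21 to -1.07) at Lats1-sg1 and -9.84 points (-16.4 to -3.32) at Lats1-sg2, where the share fell in PTG (-1.24 and -7.05) and rose or was not called in coinjection (1.41 and 2.78). As a share of all reads Lats1-sg2 turned, with a rise of 2.84 points in PTG and -2.90 points in coinjection, and without its leading deletion neither change was called (4.62 and 2.52 points). At Lats1-sg1 the changes as a share of all reads were -0.216 points in PTG and -0.0371 in coinjection, and neither was called. PTG minus coinjection was 11.97 points (8.71 to 15.2) at Lats2-sg1, where the share rose in both, by 19.2 in PTG and 7.28 in coinjection. It was -1.73 points (-3.02 to -0.436) at Lats2-sg2, with rises of 3.39 and 5.12. Each change rests on 1 library per time and arm, and the PTG libraries at 2 wpi held 27, 12, 8 and 3 distinct short clean deletions at Lats1-sg1, Lats1-sg2, Lats2-sg1 and Lats2-sg2. The part of the animals in these differences was not tested.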

How the results depend on the processing

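The count of 21 sites above EV stayed at 21, or 20 with deletions under 10 reads left out. Because they redefine the class, most alternatives moved the medians over sites. The median share of indel reads, 12.96%, became 6.05% with no shared base, 5.41% for 3 to 19 bp, 18.3% with each deletion counted once and 7.40% without the most frequent deletion. In the order no shared base, 3 to 19 bp, at least 10 reads, each deletion once and no most frequent deletion, the one-sided median, 90.5%, became 95.9%, 84.4%, 93.9%, 66.7% and 84.5%. The median length, 3 bp, became 4.5 bp for 3 to 19 bp, 2 bp for at least 10 reads, 7.5 bp with each deletion once, 4 bp without the most frequent one, 2.5 bp without Tfam-sg2-3 and 2 bp with PTG at the Lats sites. The mean of left minus right reversed to 7.16 points for 3 to 19 bp (p = 0.338, permutation) and 7.99 without the most frequent deletion (p = 0.311, permutation); leaving out 1 target at a time it ran from -16.28 (without Lats1, p = 0.0788, permutation) to -3.07 (without Fah). Clean minus inserted-base one-sidedness was 0.380 points with no shared base, -10.2 for 3 to 19 bp, -13.4 with each deletion once and -3.99 for at least 10 reads (p = 0.0432, permutation). Both classes are not measured alike, and the cause was not tested. The 12 calls over time ranged from 9 to 15 in the other alternatives and were 7 of 15 without libraries of fewer than 10 distinct deletions. For 3 to 19 bp, 9 comparisons were called both ways, and 4 of these 9 had the opposite sign. Opposite signs were found in 2 of 9 as a share of all reads and in 1 of 8 without the most frequent deletion of each site. The 4 calls of PTG against coinjection were 7 as a share of all reads, 1 of them higher in PTG, and 2 of 5 without those libraries. Without 1 bp indels they were 6, of which 5 were higher in PTG. The share called over all classes is not given for these alternatives. No paired analysis was possible because the labels carry no replicate number that could pair libraries of different arms or times; clean and inserted-base deletions were paired within a library. Depth limits the sites with few members, such as Lats2-sg2 (33 reads at 2 wpi) and Tfam-sg1 (49).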
